A study of Mus musculus with 8 samples.

Results

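The 7 genes followed here, Folr4, Plac8, Il17rb, Il4ra, Il6ra, Il4 and Il13, mark or equip the iNKT2 subset, the IL-4-producing branch of invariant natural killer T (iNKT) cells. They were taken by symbol from a table of 22549 genes, and all 7 were found. RNA was sequenced from iNKT cells of the skin (4 libraries) and of the spleen (4 libraries) of mice with the genotype CCR10+/EGFP, in which 1 allele of the chemokine receptor gene Ccr10 carries EGFP. Skin and spleen libraries share this genotype. The labels do not state the age, sex or number of the mice, the sorting gates or the cells per library. The replicate numbers are not tied to separate animals, so the p-values speak of variation among libraries, part of which could be technical. Levels are in CPM (counts per library scaled to the same total), and log2 fold changes are skin over spleen.

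iNKT cells recognise lipids on CD1d through a semi-invariant T cell receptor, and they mature into subsets named after the T helper programmes they resemble. iNKT2 cells carry much of the transcription factor PLZF (Zbtb16) and of GATA3, transcribe Il4 in the resting state and respond to IL-25 through a receptor that contains the Il17rb product. Folr4 (now named Izumo1r) encodes folate receptor 4, a surface protein also found on regulatory T cells. Plac8 encodes a small cysteine-rich protein found in several immune cell types. Il4ra encodes the IL-4 receptor alpha chain, which pairs with the common gamma chain (Il2rg) for IL-4, or with the Il13ra1 product for IL-4 and IL-13. Il6ra encodes the binding chain of the IL-6 receptor, whose signal passes through gp130 (Il6st). Il4 and Il13 encode related cytokines and lie side by side on chromosome 11, between Kif3a and Rad50, with Il5 on the far side of Rad50.

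Promoter windows are shown for Folr4 and Plac8, which had counts in each spleen library and in no skin library, and for Il4, the cytokine gene that defines the subset. Each runs 5′ to 3′ over 300 bases, from 250 before to 50 after the 5′-most start in the table, from RefSeq on GRCm38.p6, and all 3 lie on the minus strand. The counts were made on mm9, so these coordinates do not apply to the authors' alignments. All 7 genes had a window. Capitals mark letters of factor motifs that were searched for on both strands and are spelled out after the sequences.
Folr4, chr9:14903718-14904017: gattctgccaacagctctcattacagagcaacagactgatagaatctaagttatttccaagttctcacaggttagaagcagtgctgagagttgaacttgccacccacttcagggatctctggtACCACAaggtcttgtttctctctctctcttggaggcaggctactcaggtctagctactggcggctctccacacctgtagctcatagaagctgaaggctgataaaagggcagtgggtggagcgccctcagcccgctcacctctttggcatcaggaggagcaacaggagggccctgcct
Plac8, chr5:100572156-100572455: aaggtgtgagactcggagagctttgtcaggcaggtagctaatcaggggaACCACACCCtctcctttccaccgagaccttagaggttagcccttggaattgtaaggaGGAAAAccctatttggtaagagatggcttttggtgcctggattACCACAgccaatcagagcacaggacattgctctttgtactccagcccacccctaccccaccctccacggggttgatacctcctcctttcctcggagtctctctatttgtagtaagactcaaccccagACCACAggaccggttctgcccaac
Il4, chr11:53618616-53618915: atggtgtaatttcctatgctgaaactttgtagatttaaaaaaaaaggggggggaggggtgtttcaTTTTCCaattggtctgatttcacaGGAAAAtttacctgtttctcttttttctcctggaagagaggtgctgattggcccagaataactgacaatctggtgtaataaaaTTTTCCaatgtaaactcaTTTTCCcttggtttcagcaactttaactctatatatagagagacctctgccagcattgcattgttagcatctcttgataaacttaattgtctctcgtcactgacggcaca
The Il4 window held 4 matches to the NFAT letters (GGAAAA), which 23.6% of 27025 promoters hold at least once. They began at -185, -161, -78 and -60 from the start site. The RUNX letters (TGTGGT) stood once in the Folr4 window and 3 times in the Plac8 window, and 16.9% of promoters hold them. The Plac8 window also held 1 NFAT match and 1 match to the KLF letters (CCACACCC), found in 3.6% of promoters, which overlapped a RUNX match. The GATA letters (AGATAA), held by 11.4% of promoters, were in none of the 3 windows. The same was true of the TCF and LEF letters (CTTTGA), held by 16.2%. Only the spelling given was searched for each motif, so other spellings of these motifs can stand in the windows. A match describes the letters and is no evidence of binding.

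Total expected counts were 7221498 to 9791973 in skin libraries and 7191131 to 9361237 in spleen libraries. A count above 0 was found for 5302 to 6012 genes in skin libraries and for 6415 to 10094 in spleen libraries, at similar totals. The CD3 chain genes Cd3e and Cd3g were present in all 8 libraries, and so was Zbtb16, while Klrb1c, the gene of the surface antigen NK1.1, had no count in skin libraries. Other T cell genes were patchy. Cd247 was at 0 in skin replicate 4 and in spleen replicates 1 and 2. In skin replicate 1 Cd5 was at 0 and Thy1 at 0.605 CPM. edgeR's quasi-likelihood test covered 6920 genes and, with Benjamini-Hochberg adjustment at 0.05, called 128 of them (1.85%) higher in skin and 248 (3.58%) lower. The median log2 fold change of the tested genes was -0.29.

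The iNKT2 subset genes did not move as a block between the tissues. Folr4 and Plac8 had no count in skin and at least 182 CPM in each spleen library. Il4ra stood the other way, with each skin library above each spleen library, and did not pass the test. Il17rb and Il4 had counts in all spleen libraries and in 2 of the 4 skin libraries. Il6ra had a count in 1 library and Il13 in none. Of the 7 genes, 5 passed the filter on low counts, and 2 of them were called lower and 0 higher. At an unadjusted p under 0.05, and with DESeq2 or limma-voom, the numbers were again 2 lower and 0 higher. Folr4 and Plac8 passed the filter through the spleen libraries alone, so their number carries no weight against the 3.58% of all tested genes.

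**Figure D1:**
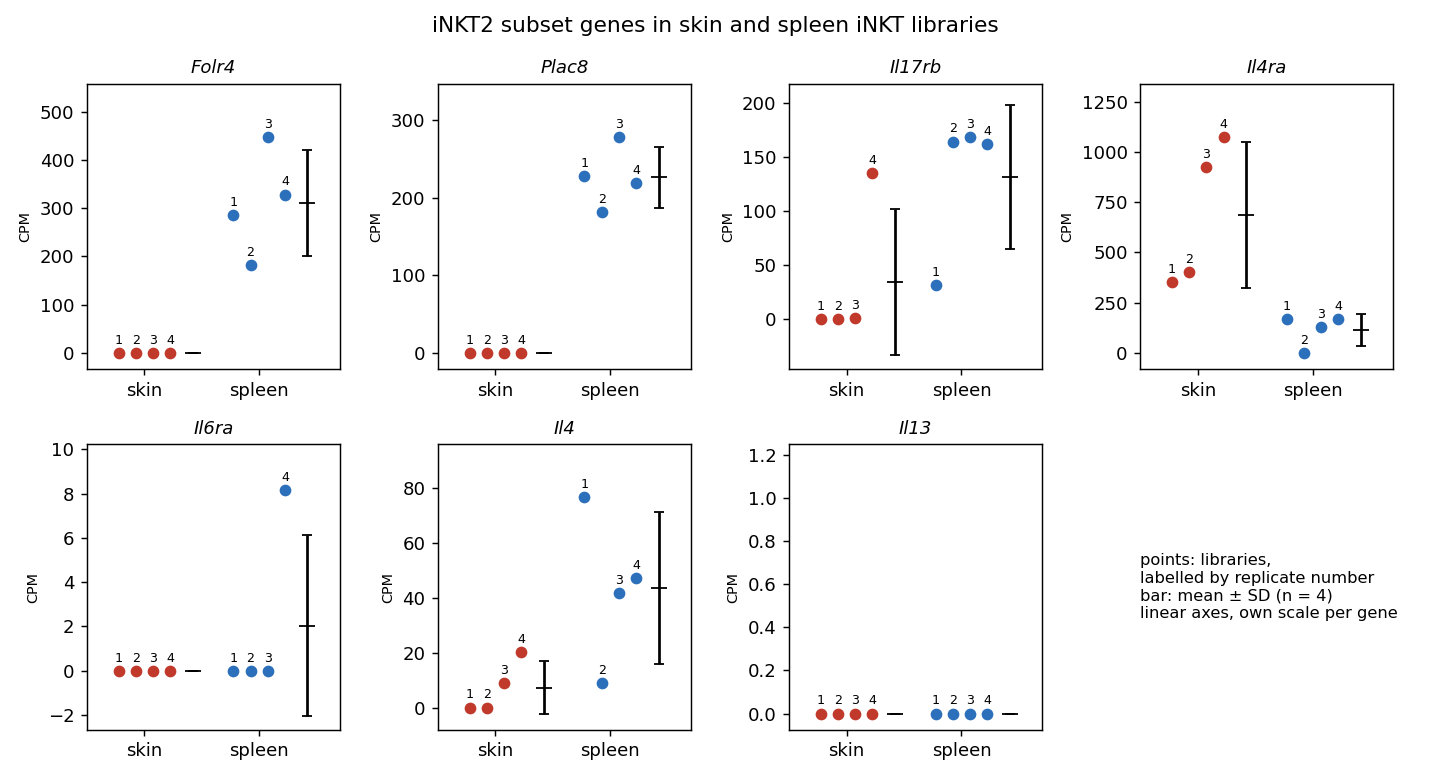
CPM of each of the 7 genes in the 4 skin and 4 spleen libraries, with a point per library labelled by its replicate number and a bar for the mean and SD (n = 4), on linear axes that differ between genes. Folr4 and Plac8 stand at 0 in skin, the 4 skin values of Il4ra lie above the 4 spleen values, and a single skin library carries nearly all the Il17rb signal of that tissue.

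Folr4 had 0 CPM in the 4 skin libraries, against 285, 182, 447 and 328 CPM in spleen replicates 1 to 4. The spleen mean was 311 ± 109 CPM (SD, n = 4). All skin values lay below all spleen values, which held for 13.4% of tested genes. With a floor of 3 counts per library Folr4 was at least 803-fold lower in skin (edgeR adjusted p = 0.00373). This bound takes in counting error and leaves aside RNA lost on the way to the library. The call was kept in each of the 8 fits that left out 1 library, with adjusted p from 0.00336 to 0.0426 in edgeR. Its spleen counts were not whole, as can arise when reads are shared with other genes, and the source of the fractions was not tested. The related folate receptor genes Folr1 and Folr2 had 0 counts over all libraries.

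Plac8 had 0 CPM in the 4 skin libraries, against 228, 182, 278 and 219 CPM in spleen replicates 1 to 4. Its spleen values averaged 227 ± 39.6 CPM (SD, n = 4) and varied less than those of Folr4. Plac8 was at least 585-fold lower in skin (edgeR adjusted p = 0.00953). The call was lost without spleen replicate 3 (edgeR adjusted p = 0.0828) and without spleen replicate 4 (edgeR adjusted p = 0.056). In these data 642 genes averaged 200 to 400 CPM in spleen, and 8 of them (1.25%) had no count in any skin library. The other 6, listed after their values were seen, were Asb2, Ganab, Gimap7, Ifit3, Klrb1c and Rgs3.

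Because bulk RNA was measured, fewer cells of the subset and less RNA per cell cannot be told apart for any of these genes. Among markers of other cells that carry Folr4 or Plac8, Foxp3, the defining factor of regulatory T cells, had 9.54 CPM in skin replicate 1, 1.34 CPM in spleen replicate 4 and no count in the other 6 libraries. The 7 regulatory T cell markers summed to 129 to 894 CPM in skin and 186 to 540 CPM in spleen, with most of the sum in Tnfrsf18, and Lrrc32 was at 0 in all 8 libraries. The 8 B cell markers were at 0 in each skin library and summed to 31.5 to 166 CPM in spleen libraries, with Pax5, Ebf1, Cr2 and Fcer2a at 0. In spleen replicates 1 to 4 that sum was 166, 66.6, 31.5 and 78.2 CPM, beside 228, 182, 278 and 219 CPM of Plac8. The plasmacytoid dendritic cell list summed to 0 to 102 CPM in skin and 131 to 280 CPM in spleen, there mostly from Ccr9, which T cells carry too, and its defining gene Siglech was at 0 in all 8 libraries. The part of these cells in the Folr4 and Plac8 counts was not tested.

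Il4ra had 351, 400, 923 and 1072 CPM in skin replicates 1 to 4, against 166, 0, 126 and 170 CPM in spleen replicates 1 to 4. The means were 687 ± 365 CPM in skin and 116 ± 79.6 CPM in spleen (SD, n = 4 each), a 5.94-fold difference. The lowest skin library stood above the highest spleen library, which held for 6.11% of all tested genes. The log2 fold change was 2.57 ± 1.39 (SE) with a 95% interval of -0.59 to 5.73, and it did not pass the test (edgeR adjusted p = 0.6). Without spleen replicate 2, the library at 0, it was 2.14 and again not called (edgeR adjusted p = 0.101). Genes that averaged 100 to 200 CPM in the other spleen libraries were at 0 in 9.37% of cases in spleen replicate 2. Keratinocytes also carry Il4ra, and the 10 keratinocyte markers summed to 841, 334, 953 and 181 CPM in skin replicates 1 to 4, against 0 to 29.5 CPM in spleen. Perp and Sfn had counts in all 4 skin libraries. Krt14 was at 0 in skin replicates 2 and 4, and Dsp, Lor and Trp63 were at 0 in every library. Skin replicate 4 had the highest Il4ra level and the lowest keratinocyte sum, while skin replicate 3 had the next highest Il4ra level and the highest keratinocyte sum. The part of keratinocytes in the Il4ra counts was not tested. The 10 myeloid markers summed to 239 to 645 CPM in skin and 68.8 to 213 CPM in spleen, mostly from Cebpb in skin, with Csf1r and Emr1 at 0 throughout. Itgam, S100a8, S100a9 and Tyrobp had counts in spleen libraries alone, and Cd68 in 1 skin library alone. Lyz2 and Cd14 had counts in both tissues.

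The other genes of the IL-4 and IL-13 receptor pathway went in both directions, and Il4ra itself was not called. Of 12 measured genes 10 were tested, 0 were higher and 1 was lower in skin, with a median log2 fold change of -0.64. Over all tested genes 1.85% were called higher and 3.58% lower, so counts this small do not set the list apart. Unadjusted p under 0.05 gave 1 higher and 2 lower, DESeq2 0 and 0, and limma-voom 1 higher and 0 lower. Il2rg, the common gamma chain, had 1379 to 2636 CPM in skin and 2645 to 3114 CPM in spleen (log2 fold change -0.38 ± 0.20, SE; edgeR adjusted p = 0.557). Il13ra1 had 93.3 CPM in skin replicate 3 and no count in the other 7 libraries. Stat6, the transcription factor that IL-4 receptors activate, averaged 135 ± 136 CPM in skin and 253 ± 162 CPM in spleen (SD, n = 4 each; edgeR adjusted p = 0.998). Ptpn6, the gene of the phosphatase SHP-1, was the member that fell, to 174 ± 32.7 CPM in skin, against 630 ± 211 CPM in spleen (SD, n = 4 each; edgeR adjusted p = 0.0247). That call was kept in 3 of the 8 fits without 1 library and was lost without skin replicates 1 or 2 or spleen replicates 2, 3 or 4, with adjusted p up to 0.098 in edgeR.

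**Figure D2:**
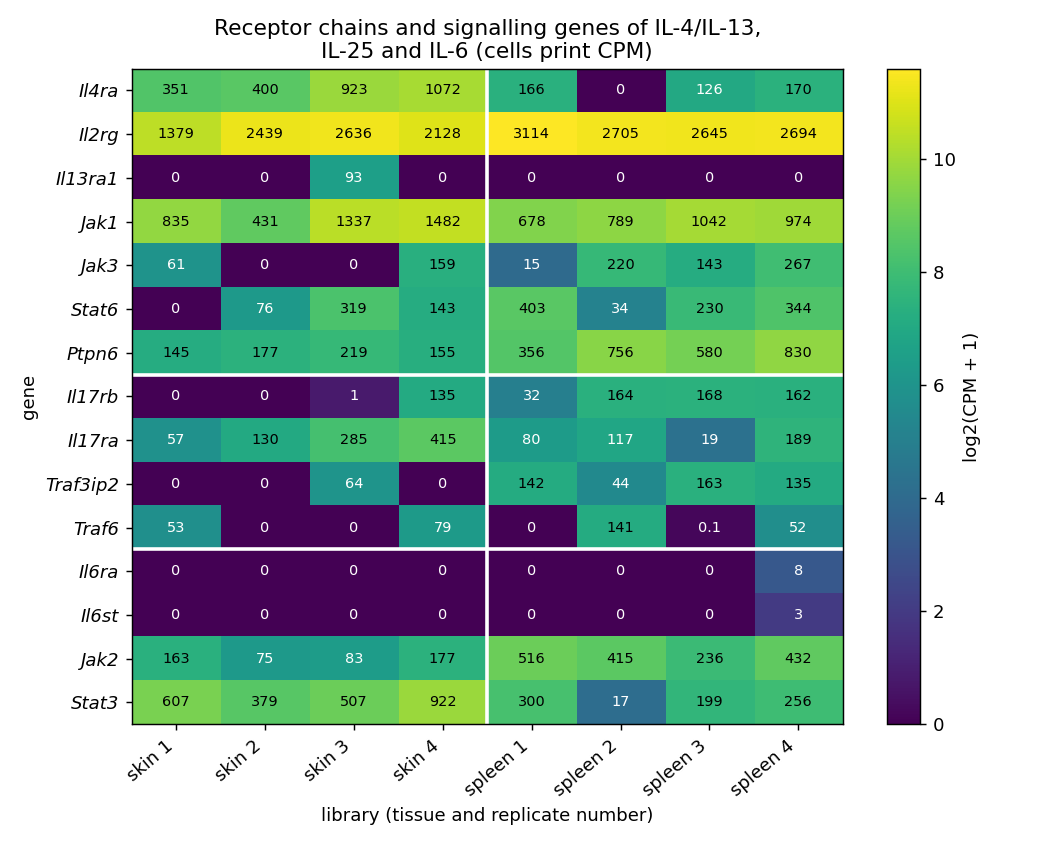
CPM of receptor chains and signalling genes in each library, coloured by log2(CPM + 1), with skin libraries on the left, spleen libraries on the right and white lines between the IL-4/IL-13, IL-25 and IL-6 receptor groups. Il2rg has counts throughout, Il4ra is brightest in skin, and Il6ra and Il6st are dark in all but spleen replicate 4.

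Il17rb had 0, 0, 0.795 and 135 CPM in skin replicates 1 to 4, against 31.7, 164, 168 and 162 CPM in spleen replicates 1 to 4. Skin replicate 4 lay within the spleen range, and the other skin libraries lay below it. The log2 fold change was -1.95 ± 2.34 (SE) with a 95% interval of -7.26 to 3.36 (edgeR adjusted p = 0.998). Without skin replicate 4 it was -8.88 and was not called (edgeR adjusted p = 0.0886). Skin values of genes that averaged 30 to 60 CPM in the other skin libraries were at 0 in 44.8% of cases. Type 2 innate lymphoid cells also carry Il17rb, and their 7 markers summed to 46.2, 162, 101 and 509 CPM in skin replicates 1 to 4, against 17.1 to 145 CPM in spleen. In skin replicate 4 that sum was 457 CPM of Calca, 40.4 CPM of Areg and 12.1 CPM of the IL-33 receptor gene Il1rl1, while Arg1, Klrg1, Nmur1 and Il5 were at 0 in all skin libraries. Whether such cells contributed to Il17rb was not tested. Il17ra, which encodes the partner chain, was present in all 8 libraries, at 57.4 to 415 CPM in skin and 19.2 to 189 CPM in spleen (log2 fold change 1.13 ± 0.84, SE; edgeR adjusted p = 0.873). Of the 6 genes of the IL-25 receptor list 5 were tested, and 0 were called in either direction by edgeR, unadjusted p under 0.05 or DESeq2, against 1 lower by limma-voom. Their median log2 fold change was -0.12.

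Il6ra had no count in the 4 skin libraries or in spleen replicates 1 to 3, and 55 counts (8.18 CPM) in spleen replicate 4, the library with the most genes detected. It was too low to be tested. Its partner Il6st was seen in the same library alone, at 2.97 CPM. Of the 11 genes of the IL-6 receptor list 9 were tested and 0 were called by edgeR, DESeq2 or limma-voom, while unadjusted p under 0.05 gave 1 higher and 2 lower. The median was 0.23. Stat3, the main transcription factor downstream of gp130, averaged 604 ± 231 CPM in skin and 193 ± 125 CPM in spleen (SD, n = 4 each; edgeR adjusted p = 0.393).

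Il4 had 0, 0, 8.85 and 20.2 CPM in skin replicates 1 to 4, against 76.6, 8.77, 41.5 and 47.0 CPM in spleen replicates 1 to 4. The tissues overlapped, since spleen replicate 2 lay below skin replicates 3 and 4. The means were 7.26 ± 9.58 CPM in skin and 43.4 ± 27.8 CPM in spleen (SD, n = 4 each). The log2 fold change was -2.58 ± 2.26 (SE) with a 95% interval of -7.70 to 2.55, and it did not pass the test (edgeR adjusted p = 0.945). Without skin replicate 4 the log2 fold change was -3.90 (edgeR adjusted p = 0.618). At this level zeros were frequent: skin values of genes that averaged 5 to 15 CPM in the other skin libraries were at 0 in 57.1% of cases. Mast cells and basophils also transcribe Il4, and all 9 of their markers, among them Fcer1a, Cpa3 and Mcpt8, had no count in any library. Whether such cells contributed to Il4 was not tested.

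Il13 had no count in any of the 8 libraries, which allows up to 0.454 CPM per skin library and 0.446 CPM per spleen library for a floor of 3 counts. The other cytokine genes of the type 2 list, Il5, Il9, Il10, Il3, Il24 and Il31, were also at 0 in all 8 libraries, and Csf2 had 24.3 CPM in skin replicate 4 alone. Rad50, the neighbour of Il13, had 46.8 ± 51.1 CPM in skin and 92.5 ± 45.4 CPM in spleen (SD, n = 4 each; edgeR adjusted p = 0.998). Of the 9 genes in that list 2 were tested, Rad50 and Kif3a, and 0 were called by edgeR, unadjusted p under 0.05, DESeq2 or limma-voom.

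**Figure D3:**
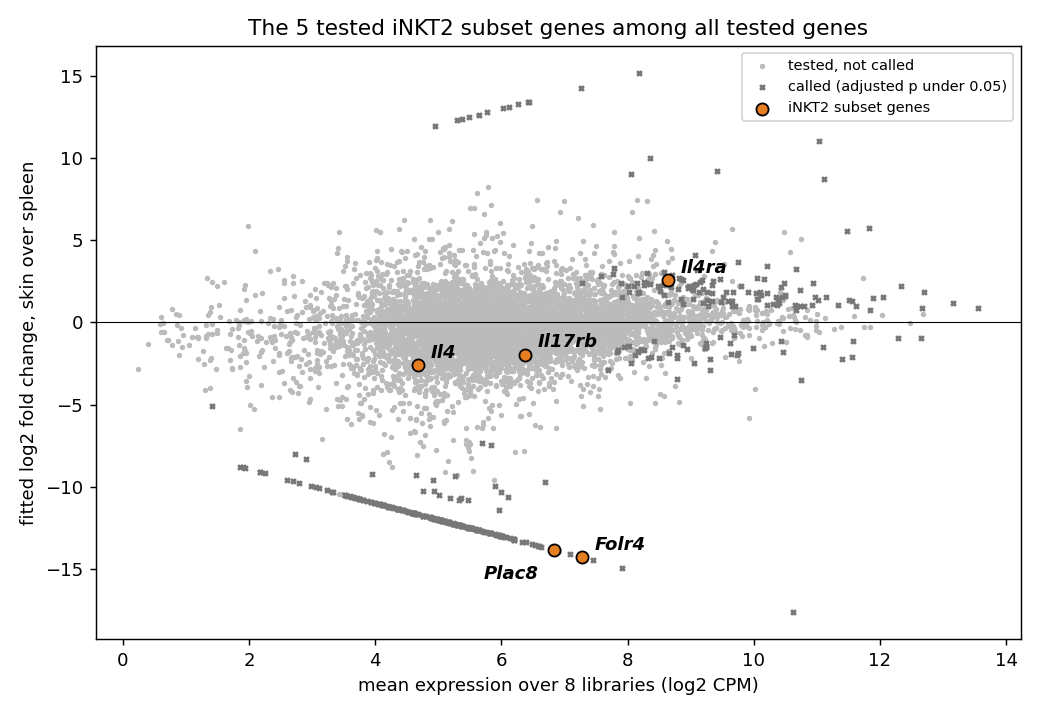
Fitted log2 fold change, skin over spleen, against mean expression (log2 CPM over 8 libraries) for the 6920 tested genes, with called genes as crosses and the 5 tested iNKT2 subset genes in orange. Folr4 and Plac8 lie on the line formed by genes with no skin count, whose fitted values depend on a prior and are no measured fold, and Il4ra lies above 0 among genes of similar level, some of which were called.

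In a list of transcription factors linked to the iNKT2 and T helper 2 programmes, no gene was called by edgeR in either direction. Of 18 measured 14 were tested, with a median log2 fold change of -0.50, and edgeR called 0 higher and 0 lower. Unadjusted p under 0.05, DESeq2 and limma-voom each gave 1 lower and 0 higher. By unadjusted p that gene was Lef1, which also came nearest to a call in this list (edgeR adjusted p = 0.0500327). Lef1 had 0 to 0.55 CPM in skin and 82.8 to 153 CPM in spleen, without overlap. Such a gap with skin lower held for 13.4% of tested genes. Lef1 passed the filter through the spleen libraries alone. Zbtb16 had 75.7, 26.5, 20.5 and 55.2 CPM in skin replicates 1 to 4, against 26.8, 5.24, 90.2 and 144 CPM in spleen replicates 1 to 4, and the ranges overlapped. Gata3 averaged 122 ± 81.7 CPM in skin and 171 ± 75.9 CPM in spleen (SD, n = 4 each; edgeR adjusted p = 0.998). Among the NFAT genes, whose products bind the Il4 promoter, Nfatc1 averaged 463 ± 223 CPM in skin and 280 ± 93.9 CPM in spleen (SD, n = 4 each; edgeR adjusted p = 0.673).

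Among 12 other surface molecules of iNKT2 cells, 7 were tested, 1 was higher, 2 were lower and the median log2 fold change was -1.52. Of all tested genes 1.85% were called higher and 3.58% lower. Icos, a costimulatory receptor, was higher at 2577 to 3595 CPM in skin, against 503 to 683 CPM in spleen (log2 fold change 2.41 ± 0.17, SE; edgeR adjusted p = 0.000361). Like Folr4 and Plac8, Slamf6 and Ccr9 had no count in skin. Both passed the filter through the spleen libraries alone, so their number carries no weight against the share of all tested genes. Slamf6, a SLAM family receptor, had 194 ± 76.8 CPM in spleen (SD, n = 4; edgeR adjusted p = 0.0197), and Ccr9, a gut homing receptor, had 147 ± 57.8 CPM (SD, n = 4; edgeR adjusted p = 0.0352). The Slamf6 call was lost without spleen replicates 1, 3 or 4, and the Ccr9 call without any 1 spleen library, with adjusted p up to 0.12 and 0.137 in edgeR. Cd4, the coreceptor found on most iNKT2 cells, had 0 to 2.95 CPM in skin and 0, 59.6, 52.0 and 54.3 CPM in spleen replicates 1 to 4 (edgeR adjusted p = 0.623). Among the 12 genes of the T cell receptor and iNKT identity list 1 was higher and 2 were lower. Cd44 was higher (edgeR adjusted p = 0.00808), and Klrb1c (0.0187 in edgeR) and Cd3d (0.025 in edgeR) were lower. Without a skin count, Klrb1c also passed the filter through the spleen libraries alone. Klrb1c was not called without spleen replicates 2, 3 or 4, nor Cd3d without skin replicates 1 or 3 or spleen replicates 2, 3 or 4, with adjusted p up to 0.113 and 0.11 in edgeR.

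Fewer of the 7 genes had a count in the libraries with the fewest genes detected. Skin replicates 1 and 2, with 5304 and 5302 genes detected, had a count for 1 of the 7, Il4ra. Skin replicates 3 and 4, with 5954 and 6012 genes detected, had counts for 3, Il4ra, Il17rb and Il4. In spleen replicates 1 to 4, with 6415, 6897, 8690 and 10094 genes detected, 5, 4, 5 and 6 of the 7 had counts. The part of detection in the differences between tissues was not tested.

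**Figure D4:**
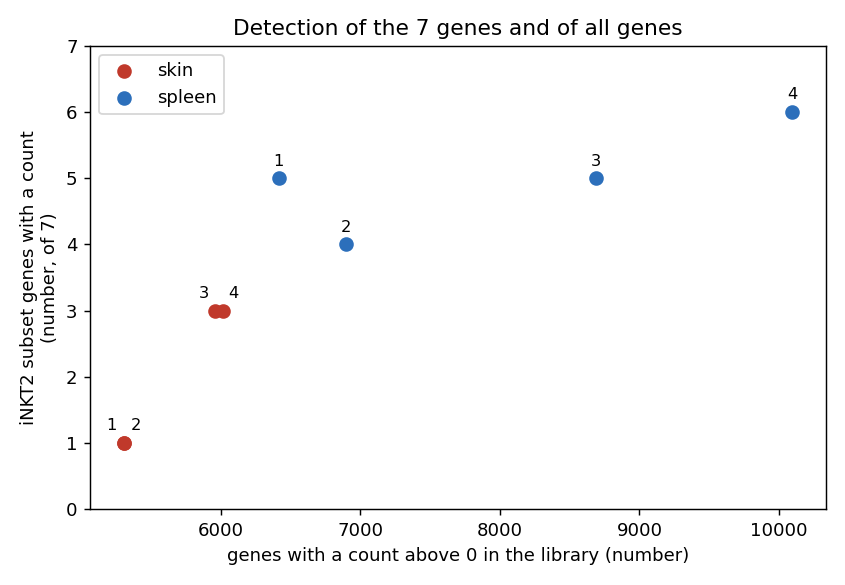
Number of the 7 iNKT2 subset genes with a count against the number of all genes with a count, with a point per library labelled by its replicate number, for skin and spleen. Skin libraries lie at the lower left, with 1 to 3 of the 7 genes, and spleen libraries to the right, with 4 to 6.

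By Pearson correlation of log2 CPM over the 8 libraries, given as a description, the genes most like Folr4 were Usp39, Gins2 and Dtx1 (r = 0.9999, 0.9999 and 0.9997). Those most like Plac8 were Gimap4, Apex1 and Lap3 (r = 0.9998, 0.9998 and 0.9996). Each of these 6 genes also had no count in skin, which fixes most of the likeness, and of 6420 genes 97 had r over 0.99 with Folr4 and 107 with Plac8. The genes most like Il4ra were Gclc, Tmem64 and Klf10 (r = 0.993, 0.992 and 0.991). Like Il4ra, Klf10 had no count in 1 spleen library. Tmem64 did not overlap between the tissues, at 736 to 1275 CPM in skin and 0.228 to 209 CPM in spleen. Il17rb was most like Ptp4a3, Prpf6 and Sirt6 (r = 0.99, 0.987 and 0.985), and Il4 was most like Xylt2, Dcdc2c and Idh3b (r = 0.982, 0.98 and 0.98). None of these 6, nor the 3 genes most like Il4ra, was called.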

How the data were processed

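RNA was sequenced as paired-end reads of 75 bp from full-length cDNA (SMART-Seq v4, for very small inputs, without strand information), per the labels' protocols. The authors deposited expected counts for each gene, made with RSEM on mm9 and not scaled for library size or length, per the submitters' processing notes, which also name FastQC and DESeq2 1.16.1 without a role. The aligner, annotation release and filters are not stated there. RSEM shares reads between similar genes, and without strand, reads of overlapping genes are not separable; in RefSeq 1 predicted gene, Gm46811, overlaps Il6ra.

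Columns were assigned by the labels' descriptions and groups by titles; no sample column was left over (0 unused). Values were rounded to the nearest whole count. edgeR 4.0.16 (limma 3.58.1, R 4.3.3) filtered genes with filterByExpr, leaving 6920, scaled by TMM and fitted a robust quasi-likelihood model with tissue as its term (6 residual degrees of freedom, common dispersion 2.94). The SE is the log2 fold change divided by the square root of F, and is not given for genes without a count in 1 tissue. A floor of 3 counts is 0.292 to 0.454 CPM per library; floors cover counting error only. The fit was also run on simulated data. Recovery of planted changes was required only where the simulated spread was capped far below the common dispersion of these data. That run therefore does not show the power of the test here. No 2 libraries agreed within sampling noise (smallest chi-square per degree of freedom 118). Alternatives were RLE size factors, no filter, at least 5 CPM in 4 libraries, limma-voom with quality weights, DESeq2 1.42.0, counts rounded down, a replicate block and each library left out.

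The 7 genes, the 15 gene lists (all of their symbols matched) and the motif letters were chosen with earlier results of these data known. Named were all 7 genes, up to 3 higher and 3 lower genes of each list by adjusted p, a short set whatever its values (Zbtb16, Gata3, Icos, Slamf6, Cd4, Stat6, Il2rg, Il13ra1, Il17ra, Il6st, Il5 and Rad50), and the 3 genes most like each tested one by Pearson correlation of log2 CPM (prior count 2), leaving out predicted-gene, clone and small RNA names. Further genes, and the CPM ranges used for shares of zeros, were chosen after their values were seen. The stroma markers summed to 0 to 109 CPM in skin and 0 to 57.4 CPM in spleen.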

Additional observations from a re-analysis of the deposited data

Results flagged for a closer look

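In 36 tissue groups of 24 named genes with any spread, 9 had 1 library far from the other 3 by Dixon's ratio at the 95% level. For normally distributed values chance gives about 1 in 20. A group with a count in 1 library alone is always flagged, as were Il6ra, Il6st and Il13ra1. The 9 can therefore not be set against that rate. Il17rb stood apart in skin replicate 4, at 135 CPM with the nearest library at 0.795 CPM, and in spleen replicate 1, at 31.7 CPM with the nearest at 162 CPM. Il6ra stood apart in spleen replicate 4, at 8.18 CPM with the others at 0, and so did Il6st, at 2.97 CPM with the others at 0. Among partner and list genes, Icos was low in skin replicate 1 (2577 CPM), Il13ra1 was seen in skin replicate 3 alone (93.3 CPM), Slamf6 was low in spleen replicate 2 (79.4 CPM), and in spleen replicate 1 Cd4 was at 0 CPM and Il2rg was high (3114 CPM).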

How the results depend on the processing

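Over 15 alternatives, each of the 5 tested genes kept its direction, and Il4ra (log2 fold change 2.14 to 3.28), Il17rb (-8.88 to -1.55) and Il4 (-5.36 to -2.17) were called in none. The Folr4 call was kept in 14 and the Plac8 call in 12. The number of the 7 genes called lower was 2 and became 0 with the replicate block, and without 1 library it was 1 to 2; the number called higher was 0 in all 15. Over all genes, 128 were higher and 248 lower. The higher count became 200 with DESeq2, 207 with limma-voom and 36 with the replicate block; the lower count became 1168, 500 and 14 in the same 3, and 48 without a filter. Without 1 library 47 to 102 were higher and 17 to 111 lower; the causes were not tested. The labels do not say whether a replicate number is shared between the tissues. Deviations of same-numbered skin and spleen libraries correlated at 0.0017 to 0.0105, and 1 of the 4 skin libraries correlated best with its own number. All 16 skin-spleen correlations were near 0 (-0.027 to 0.0435). In libraries that differ this much within a tissue, such a check cannot tell paired from unpaired libraries. With the replicate block the adjusted p was 0.125 for Folr4 and 0.255 for Plac8. Unfiltered, Il6ra was not called (edgeR adjusted p = 0.217). RLE scaling moved the median log2 fold change of all genes to -0.23, against -0.29 with TMM. Zeros in low-input libraries limit what can be said of Il4, Il6ra and Il13.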
